A study of Mus musculus with 2 samples.

Results

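Open chromatin lying inside protein-coding sequence was examined in mouse megakaryocyte progenitors, away from annotated start sites. A region was taken as a coding-exon region when its strongest summit fell in a coding exon of a protein-coding transcript of GENCODE M21 and lay over 1 kb from any start site of a protein-coding, lincRNA, antisense or processed transcript. Of the 80938 regions in the conservative list of both libraries, 1119 met the rule, a share of 1.38% (Wilson 95% interval 1.30 to 1.47). The data are ATAC-seq, in which a transposase inserts adapters into accessible DNA, of primary cells labelled as megakaryocyte progenitors from male adult C57BL/6J mice aged 5 to 6 weeks. The 2 libraries, each from 50000 cells, form 1 group with no treatment or mutation in the labels. They are numbered as biological replicates and carry different biosample identifiers but the same donor identifier, so separate animals are not stated. The design thus implies a comparison of coding-exon regions with regions elsewhere and between the replicates, not between conditions.

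Coding exons carry the codons that are translated into protein, and the same DNA can also be bound by transcription factors. Such bound exonic sequence can act as an enhancer of the host gene or of a neighbour, which is known for several developmental genes. In the megakaryocyte lineage, the branch of blood that makes platelets, enhancers are typically bound by GATA, ETS and RUNX factors, and CTCF is a zinc finger protein that anchors chromatin loops.

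The cell type label was checked by open start sites, counted when the strongest summit of a region lay within 1 kb of a start of the gene. They were open for 25 of 26 megakaryocyte regulators and for 42 of 52 megakaryocyte and platelet genes. They were also open for 24 of 26 erythroid, 15 of 22 granulocyte, 13 of 22 monocyte and macrophage, 8 of 17 mast cell and basophil, 9 of 18 B cell and 9 of 23 T and NK cell genes. Over all 19444 protein-coding genes with coding sequence over 1 kb from a start site, 64.8% had an open start site. Fli1, of the megakaryocyte regulators, and Vwf, of the megakaryocyte and platelet genes, had no open start site. An open start site does not measure expression, and the part of other cell types in the coding-exon regions was not tested.

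Windows of 151 bp centred on the summit are shown first for the 6 coding-exon regions in genes of the megakaryocyte lists, because these are where coding sequence and lineage gene coincide. The sequences are from GRCm38 (mm10), written 5′ to 3′ on the strand of the gene. Capitals mark matches, on either strand, to the GATA, ETS, RUNX, CTCF and AP-1/NFE2 motifs. The windows lie at chr9:32476697-32476847 (minus strand), chr9:110635346-110635496 (minus), chr6:125588370-125588520 (plus), chr16:30309616-30309766 (minus), chr11:116075750-116075900 (minus) and chr4:115063244-115063394 (plus).
Fli1: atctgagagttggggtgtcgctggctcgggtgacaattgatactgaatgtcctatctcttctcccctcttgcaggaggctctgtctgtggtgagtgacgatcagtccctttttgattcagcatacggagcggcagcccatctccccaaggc
Nbeal2: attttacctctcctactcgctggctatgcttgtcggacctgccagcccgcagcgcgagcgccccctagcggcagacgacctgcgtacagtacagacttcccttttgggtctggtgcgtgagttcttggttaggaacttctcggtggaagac
Vwf: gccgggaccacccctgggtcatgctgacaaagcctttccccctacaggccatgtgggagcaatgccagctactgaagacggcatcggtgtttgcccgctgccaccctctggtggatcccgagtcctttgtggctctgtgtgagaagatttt
Gp5: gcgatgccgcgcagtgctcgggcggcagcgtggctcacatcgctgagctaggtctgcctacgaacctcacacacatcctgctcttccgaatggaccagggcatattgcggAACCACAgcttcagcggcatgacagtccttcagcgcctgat
Unc13d: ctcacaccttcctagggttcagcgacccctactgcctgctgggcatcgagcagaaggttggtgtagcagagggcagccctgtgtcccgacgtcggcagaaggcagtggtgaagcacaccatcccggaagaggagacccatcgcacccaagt
Tal1: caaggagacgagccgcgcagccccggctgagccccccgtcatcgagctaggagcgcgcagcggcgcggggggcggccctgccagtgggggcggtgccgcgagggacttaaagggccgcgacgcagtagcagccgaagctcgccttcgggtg
Of these 6 windows, only that of Gp5 held an exact match to any of the 5 motifs, a RUNX match on the antisense strand of the coding sequence. Sequence close to a motif without matching its letters was not counted.

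The next windows show where motif matches fell in other coding-exon regions named here, together with Dscam, which had the highest signal of all 1119. Abca13, Zbtb5, Parp14 and Nrip1 show GATA matches inside coding sequence, Nrip1 with an AP-1/NFE2 match beside it. For Dst, exon 53 of 98 shows a CTCF match in coding sequence and exon 87 shows RUNX, GATA and ETS matches together. In Dgki the ETS match is in the exon and the CTCF match in the intron that follows it. The windows lie at chr16:96819815-96819965 (minus strand), chr11:9373283-9373433 (plus), chr4:44993969-44994119 (minus), chr16:35856896-35857046 (minus), chr16:76293912-76294062 (minus), chr1:34218452-34218602 and chr1:34290363-34290513 (both plus), and chr6:37097483-37097633 (minus).
Dscam: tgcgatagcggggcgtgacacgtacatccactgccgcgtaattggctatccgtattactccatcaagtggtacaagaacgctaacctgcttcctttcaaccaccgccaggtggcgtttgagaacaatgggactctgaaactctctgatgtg
Abca13: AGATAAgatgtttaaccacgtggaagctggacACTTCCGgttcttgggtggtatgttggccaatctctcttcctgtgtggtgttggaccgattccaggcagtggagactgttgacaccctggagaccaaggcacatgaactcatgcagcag
Zbtb5: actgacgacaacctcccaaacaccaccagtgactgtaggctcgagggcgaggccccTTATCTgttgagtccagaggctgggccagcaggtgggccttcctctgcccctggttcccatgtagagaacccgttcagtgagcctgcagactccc
Parp14: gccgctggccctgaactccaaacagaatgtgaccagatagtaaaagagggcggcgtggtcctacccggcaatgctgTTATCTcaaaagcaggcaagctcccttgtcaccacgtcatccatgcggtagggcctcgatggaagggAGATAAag
Nrip1: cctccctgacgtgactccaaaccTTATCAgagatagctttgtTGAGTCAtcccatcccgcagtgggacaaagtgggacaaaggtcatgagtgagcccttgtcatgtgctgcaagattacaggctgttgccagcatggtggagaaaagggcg
Dst exon 53: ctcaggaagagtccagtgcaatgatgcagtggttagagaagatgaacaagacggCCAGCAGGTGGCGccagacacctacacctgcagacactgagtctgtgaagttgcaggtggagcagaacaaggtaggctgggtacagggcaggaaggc
Dst exon 87: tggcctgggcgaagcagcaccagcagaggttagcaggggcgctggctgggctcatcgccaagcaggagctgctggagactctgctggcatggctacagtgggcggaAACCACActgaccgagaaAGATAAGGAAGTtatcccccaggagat
Dgki: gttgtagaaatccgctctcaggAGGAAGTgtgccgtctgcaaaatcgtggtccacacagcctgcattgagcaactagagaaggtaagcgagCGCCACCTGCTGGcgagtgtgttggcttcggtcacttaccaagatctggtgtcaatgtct
In the window of Dst exon 87 the GATA and ETS matches share 1 base, so the capitals run together. The Dscam window held no exact match to any of the 5 motifs.

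Coding exons held more summits per length than introns or intergenic sequence. Over sequence more than 1 kb from a start site, the conservative list had 40.1 strongest summits per Mb in the 27.9 Mb of coding exons, 40.3 per Mb in untranslated exons, 33.7 in introns and 19.0 in intergenic sequence. In the replicates' own lists coding exons had 28.9 per Mb (replicate 1) and 28.4 per Mb (replicate 2), averaging 28.6 ± 0.354 (SD, n = 2). Introns had 24.2 and 23.5 per Mb (23.9 ± 0.447) and intergenic sequence 14.1 and 13.6 (13.8 ± 0.360). Both replicates thus gave coding exons the higher density, at 1.19 and 1.21 times that of introns and 2.05 and 2.09 times that of intergenic sequence. The gap between coding exons and introns exceeded the SD of either class, while untranslated exons, at 30.4 and 29.5 per Mb, lay slightly above coding exons in both replicates. The same rule applied to each replicate found 807 of 61735 regions (1.31%) in replicate 1 and 793 of 60098 (1.32%) in replicate 2. How densely the reads could be mapped in each class was not tested.

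**Figure D1:**
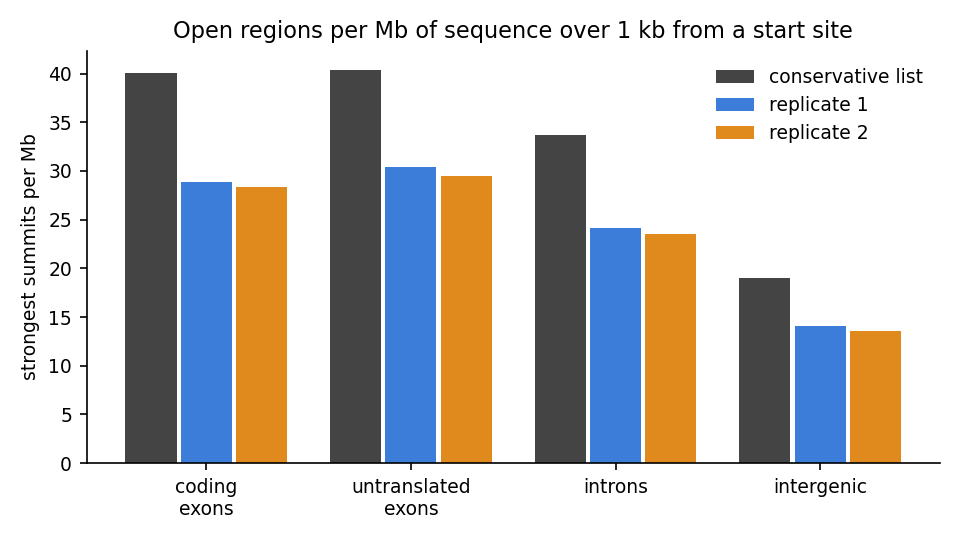
Strongest summits per Mb of sequence (y axis) in 4 classes of sequence over 1 kb from a start site (x axis), with bars for the conservative list of both libraries and for each replicate's own list. Coding exons, at 28.9 and 28.4 per Mb in the replicates, stand above introns (24.2 and 23.5) and intergenic sequence (14.1 and 13.6).

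Density varied with the length and place of the exon. Taking 1 transcript a gene, which held 1072 of the 1119 regions, coding exons of up to 100 bp had 29.8 summits per Mb in the conservative list, and those of 501 to 1000 bp had 51.96. Exons over 2000 bp had 27.9 per Mb, from 52 regions. The replicates gave 22.8 and 20.3 per Mb for the shortest exons, 37.5 and 36.7 for those of 501 to 1000 bp, and 21.4 and 18.8 for the longest. Both replicates therefore had their lowest densities at the short and the long end and higher ones between 301 and 1000 bp. By place, last coding exons had 40.2 and 38.0 summits per Mb in replicates 1 and 2, and internal exons 24.7 and 24.7. Initial coding exons had 35.6 in both and genes with only 1 coding exon 34.0 and 33.2, so internal exons were lowest in both replicates.

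**Figure D2:**
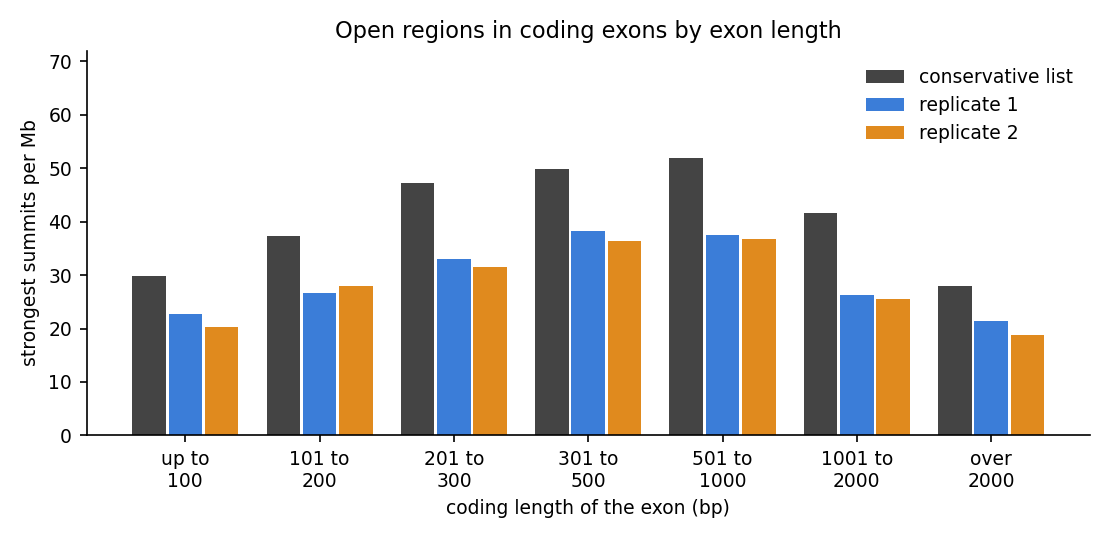
Strongest summits per Mb of coding sequence (y axis) by coding length of the exon in bp (x axis), with bars for the conservative list and each replicate. In the conservative list the density goes from 29.8 per Mb in exons of up to 100 bp to 51.96 at 501 to 1000 bp and 27.9 in exons over 2000 bp.

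Most of the 1119 regions reached beyond the exon that held their summit. Only 155 lay wholly in coding sequence, while 870 also covered intron bases and 256 untranslated exon bases, and a median of 50.7% of a region's width was coding. The median region was 437 bp wide and the median exon holding a summit was 198 bp long (quartiles 134 and 533.5), so an open region was often larger than its exon. The summit lay a median of 53 bp from the nearer end of the coding exon, and 285 summits lay within 25 bp of an end. Internal exons held 728 summits (65.1%), last coding exons 268 (23.95%), single coding exons 70 and initial coding exons 53. The median signal was 8.71 in internal and 7.98 in last exons, against 6.96 in single and 6.92 in initial exons. Of the 1119 summits, 1000 were coding in every protein-coding transcript over them and 119 only in some. The longest of these exons, of 9837 bp, was in Stard9, which encodes a kinesin family protein.

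The summits were a median of 7105 bp from a start site used by the rule (quartiles 2901.5 and 17172). For 793 regions the nearest such start belonged to the host gene and for 326 to another gene. Start sites of biotypes that the rule did not use lay within 1 kb of 137 summits, those of retained-intron transcripts for 112, of nonsense-mediated decay transcripts for 19 and of miRNAs for 8. Just inside the limit, the region in Ddit4, a stress-induced inhibitor of mTORC1 signalling, lay 1004 bp from a start with a signal of 6.64 in replicate 1 and 6.47 in replicate 2. Also inside were a region in 2610507B11Rik at 1019 bp (conservative signal 7.65, in neither replicate list) and one in Etv2, an ETS factor of blood and endothelial development, at 1023 bp (11.4 and 12.1). Just outside lay those in Hcrt at 997 bp (10.8 and 10.6), Mcf2l at 992 bp (12.9 and 13.5) and Lemd3 at 987 bp (4.90 and 4.78). A further 642 coding summits lay within 1 kb of a start, with a median conservative signal of 7.75. The signals inside and outside the limit overlapped.

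Signal is the value that the authors' peak caller gave the strongest summit, and it is the authors' own measure. No scaling between libraries is stated and the depth of the libraries is unknown. In the conservative list the median signal of coding-exon regions was 8.45 (quartiles 6.46 and 11.06, range 1.87 to 23.2). It was 8.51 in introns, 9.03 in intergenic sequence, 9.64 within 1 kb of a start site and 8.90 over all regions. Coding-exon regions were thus close to intron regions in height, and in width too, with medians of 437 and 417 bp, while start-site regions were wider at 724 bp.

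Both replicates' own thresholded lists covered 659 of the 1119 regions, or 58.9% (Wilson 95% interval 56.0 to 61.7, which covers counting error only), against 63.9% over all regions and 58.2% in introns. Another 205 were in the list of 1 replicate and 255 in neither. The authors' less strict pseudoreplicated lists of both replicates covered 1090 (97.4%), near the 97.3% of all regions. The share in both thresholded lists was 96.4% in the 280 regions of highest conservative signal, 71.8% and 44.8% in the next 280 and 279, and 22.5% in the lowest 280. Coding-exon regions therefore resembled intron regions in how often they recurred, and recurrence went with signal, which the authors' threshold also depends on.

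For the 659 regions in both lists, signals in the replicates had a Spearman correlation of 0.901 and a Pearson correlation of log2 values of 0.908, against 0.919 and 0.929 over all 51738 shared regions. These correlations are across regions of the same libraries and are descriptions. The SD of the log2 ratio of replicate 2 to replicate 1, with the median of all regions removed, was 0.196 over coding-exon regions and 0.180 over all. That median was 0.0808, so signals were in general slightly higher in replicate 2. The ratio passed 0.5 on the log2 scale in either direction in 13 of the 659, or 1.97%, against 1.13% of all shared regions. The lowest ratio was in Ankrd40, with 13.5 in replicate 1 and 9.09 in replicate 2 (log2 ratio -0.65), followed by Pdia4, an endoplasmic reticulum protein disulfide isomerase (15.7 and 10.7, -0.64), and Dtx3l, a ubiquitin ligase (10.1 and 7.03, -0.60). The highest was in Appl1, an endosomal adaptor (6.86 and 12.2, 0.75), then Gdf6, a bone morphogenetic protein (5.26 and 8.22, 0.56), and Zdhhc22, a palmitoyltransferase (7.85 and 12.2, 0.56). With 1 library a replicate these 6 differences have no further replicate check.

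**Figure D3:**
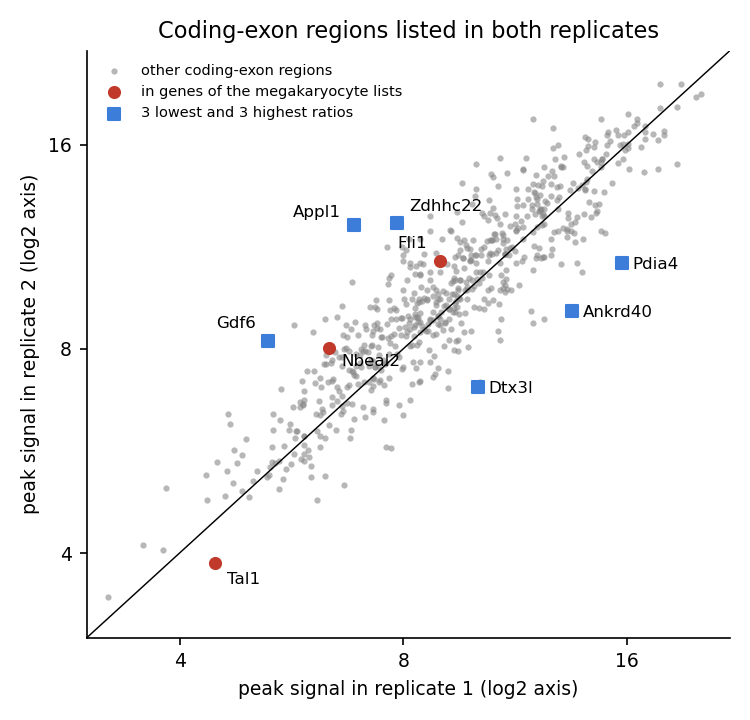
Peak signal in replicate 1 (x axis) and replicate 2 (y axis), both on log2 axes, for the 659 coding-exon regions in both replicates' lists, with the line of equal signal. Fli1, Nbeal2 and Tal1 of the megakaryocyte lists lie nearer the line than the 3 lowest and 3 highest ratios (Ankrd40 to Appl1).

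The highest signals were in genes of mixed function, none of them in the megakaryocyte lists. Dscam, a cell adhesion molecule of neurons, led with 20.1 in replicate 1 and 19.0 in replicate 2 (mean 19.6 ± 0.804, SD, n = 2) for a region of 388 bp over exon 8 of 33 (chr16:96819677-96820064). Sgtb, a co-chaperone, had 19.8 and 18.8 over its last exon (chr13:104139441-104140302). Bmpr1b, a bone morphogenetic protein receptor, had 18.7 and 18.2 over exon 6 of 11 (chr3:141862269-141863203), and its summit lay 5 bp from the end of the exon. These 3 regions had similar heights in the libraries, and the start site of Dscam was not open while those of Sgtb and Bmpr1b were. Snx14, a sorting nexin, had 18.9 and 19.7 over exon 12 of 28 (chr9:88403984-88404844), with an ETS match. Abi2, a regulator of actin polymerisation, had 16.3 and 17.1 over exon 5 of 9 (chr1:60447000-60447578). Abca13, a lipid transporter of the ABC family, had 17.9 and 16.5 over exon 30 of 62 (chr11:9373137-9373754), 179.907 kb from the nearest start. Epg5, an autophagy factor, held 2 of the 10 highest regions (17.7 and 19.6, and 17.9 and 16.8), both with a CTCF match. All 10 highest regions were in both replicates' lists.

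Srp54a and Srp54b, copies of the gene for the signal recognition particle subunit that binds signal peptides, held the other 2 of the 10. Srp54a had 16.1 and 17.7 over its last exon (chr12:55112681-55113014) and Srp54b 18.7 and 15.0 (chr12:55187733-55188080). Another copy, Srp54c, looked up because of these and so chosen after its values were seen, had 15.0 and 16.5 (chr12:55262003-55262347). The 151 bp window at the summit of Srp54a recurred without a mismatch in the Srp54b and Srp54c sequence (edit distance 0 in each pair). Reads from these near-identical copies could be divided between them in the authors' mapping, which is not given in the sources used here, so the signal of each copy is uncertain.

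In genes of the megakaryocyte lists there were 6 coding-exon regions, mostly of modest signal. Of 25 regulators with eligible coding sequence 2 held a region (8.0%), and of 48 megakaryocyte and platelet genes 4 did (8.33%), against 5.46% of all 19444 eligible genes. With so few regions these shares are near that of all genes. Their median signals were 7.04 and 5.59, against 8.45 over all coding-exon regions. Fli1, an ETS factor required for megakaryocyte development, had 8.95 in replicate 1 and 10.8 in replicate 2 (mean 9.87 ± 1.30, SD, n = 2). This region (chr9:32476456-32477131) was the highest of the 6, and its summit lay 1 bp from the end of exon 2 of 9. The nearest start site, 31.641 kb away, was that of Gm27201, and the nearest start of Fli1 itself lay 64.823 kb from the summit. Only 31.4% of the region's width was coding, and the summit was coding in 1 of the 2 protein-coding transcripts over it. Nbeal2, needed for platelet alpha granules, had 6.35 and 8.03 over exon 23 of 54 (chr9:110635113-110635555), within 1 kb of starts of a miRNA, a retained-intron and a nonsense-mediated decay transcript. Tal1, a basic helix-loop-helix regulator of blood formation, had 4.46 and 3.86 over its initial coding exon (chr4:115062966-115063580).

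The other 3 were in neither replicate's thresholded list, and their values come from the pseudoreplicated lists. Vwf, which encodes von Willebrand factor, had 5.52 and 6.51 over exon 7 of 52 (chr6:125588319-125588574). Gp5, a subunit of the platelet receptor for that factor, had 4.73 and 4.19 over its only coding exon (chr16:30308682-30310042), 1.088 kb from its start. Unc13d, needed for granule release, had 4.36 and 4.21 over exon 7 of 33 (chr11:116075590-116075994). Within each replicate all 3 were lower than Fli1 and Nbeal2.

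Of the regions whose nearest other gene was a megakaryocyte gene lying closer than the host's own start, 2 are described here. They were looked for after the values were seen, and nearness does not show which gene a region acts on. Med12l, a Mediator subunit gene, held a region over exon 19 of 44 (chr3:59234867-59235236) with 14.0 in replicate 1 and 13.8 in replicate 2, 7.486 kb from the start of P2ry12, the ADP receptor of platelets, and 228.089 kb from its own. Stil, a centriole assembly gene, held one over exon 15 of 17 (chr4:115038277-115038589) with 13.5 and 14.0, 17.988 kb from Tal1. Both were higher in both replicates than the 6 regions inside genes of the megakaryocyte lists. However, Med12l and Stil were chosen with their values known and ranked 58 and 90 by conservative signal. The 6 were taken whatever their signal, so this difference in height cannot be separated from the choice and no conclusion is drawn from it. The summit windows of Med12l (chr3:59234992-59235142, plus strand) and Stil (chr4:115038363-115038513, plus strand) are shown because each holds a match in coding sequence, ETS in Med12l and GATA in Stil, in capitals.
Med12l: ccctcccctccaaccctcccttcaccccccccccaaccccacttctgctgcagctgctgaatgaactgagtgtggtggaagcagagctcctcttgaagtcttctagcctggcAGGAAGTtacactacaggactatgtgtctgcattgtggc
Stil: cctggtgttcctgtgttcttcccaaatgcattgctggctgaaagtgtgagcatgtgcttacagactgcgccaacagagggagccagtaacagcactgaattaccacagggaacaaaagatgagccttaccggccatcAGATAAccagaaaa
In both windows the match lay in coding sequence towards the 3′ side of the summit.

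Lists of other blood lineages had similar small counts. Among erythroid genes 2 of 24 held a region, and these were Hemgn (8.22 in replicate 1 and 9.47 in replicate 2) and Klf1, the erythroid Kruppel-like factor (8.17 and 8.08). Among monocyte and macrophage genes 2 of 22 did, Spi1, which encodes PU.1 (8.30 and 10.3), and Cd163, a haemoglobin scavenger receptor (4.60 and 4.85). The granulocyte list had 1 of 21 (Padi4), mast cells and basophils 2 of 17 (Hdc and Alox5), B cells 2 of 17 (Blnk and Bach2) and T and NK cells 0 of 21. Stem and multipotent progenitor genes had 3 of 20, with Flt3, a receptor tyrosine kinase of early progenitors, at 11.9 and 9.10, Angpt1, a ligand of the Tie2 receptor, at 12.5 and 14.4, and Hoxb4 in neither replicate list. Each of these other lists had at most 3 genes with a region, beside 5.46% of all eligible genes, too few to order the lists.

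Lists that do not mark a blood lineage, and gene families, are likewise read beside the 5.46% of all eligible genes. Coding length differs between genes, so regions per Mb of eligible coding sequence are given as well, against 40.1 over all coding exons. Chromatin regulators held regions in 6 of 57 genes, among them Chd7, a chromatin remodeller (12.5 and 13.1), and the histone methyltransferase gene Kmt2a (10.8 and 10.7). Cytokine signalling genes held them in 6 of 44, with the tyrosine kinase gene Jak2 at 9.40 and 9.35. Cytoskeletal genes held them in 6 of 44, led by Dst and by Map4, a microtubule-associated protein (14.1 and 14.1). Neuronal genes, which mark no blood cell, held them in 3 of 24, with the calcium channel gene Cacna1b at 9.36 and 9.62, and cell cycle genes in 0 of 30. Per Mb, chromatin regulators had 22.6 regions, cytokine signalling genes 66.0, cytoskeletal genes 40.0, neuronal genes 56.3 and cell cycle genes 0. Chromatin regulators were thus above all genes by share of genes but below all coding exons by density. Of gene families, 12 of 387 eligible Zfp zinc finger genes, 4 of 275 olfactory receptor genes and 0 of 166 vomeronasal receptor genes held a region. For cytochrome P450 genes the count was 8 of 100, for Myo genes 8 of 38 and for Notch genes 2 of 4, with Notch3 at 17.6 and 16.3 over exon 24 of 33. Per Mb, Zfp genes had 19.6 regions, olfactory receptor genes 36.3 and vomeronasal receptor genes 0. Cytochrome P450 genes had 64.4, Myo genes 63.1 and Notch genes 127, the last from 3 regions.

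In all, 1063 genes hosted the regions, 1013 of them with 1, 45 with 2, 4 with 3 and 1, Dst, with 4. Dst encodes dystonin, a very large linker of the cytoskeleton. Over exon 53 of 98 its region (chr1:34218354-34218741) had 15.3 in replicate 1 and 14.1 in replicate 2, and over exon 87 (chr1:34290228-34291013) 6.92 and 7.85. The region over exon 68 was in the thresholded list of replicate 1 only (9.67), and that over exon 36, an exon of 5292 bp, in that of replicate 2 only (7.95). The less strict pseudoreplicated lists of both replicates held both, at 9.67 and 9.50 for exon 68 and 5.80 and 7.95 for exon 36. The 4 regions thus differed in height, and in recurrence in the thresholded lists, within 1 gene. Host genes had a median of 1695 bp of eligible coding sequence, against 1002.5 bp over all eligible genes. An open start site was found for 750 of the 1063 hosts (70.6%), against 64.8% of eligible genes, so that 313 hosts had a coding-exon region without one.

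Long exons and wide regions were found in other kinds of gene. In exons over 1 kb the highest signals were in Nynrin (15.9 and 15.7), in Zbtb5, a zinc finger factor with 1 coding exon (16.04 and 16.03), and in Parp14, an ADP-ribosyltransferase (15.8 and 16.02). Replicates were nearly equal in all 3. In initial coding exons Gal3st3, a sulfotransferase, led with 12.9 and 15.98, then Gpr149, an orphan receptor (13.1 and 14.8), and Myo15b (13.0 and 14.9), each higher in replicate 2. With the median ratio of all regions removed, their log2 ratios were 0.23, 0.10 and 0.11. The widest regions were in Hist1h1d, a linker histone gene (1718 bp), Lor, which encodes the epidermal protein loricrin (1645 bp), and Prr36 (1559 bp). Their signals were low to moderate, at 5.89 and 5.95 for Hist1h1d, 5.84 and 7.18 for Lor and 7.24 and 8.08 for Prr36.

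Summit windows in coding exons were richer in G and C than those elsewhere away from start sites. Mean GC was 56.9% over the 1119 windows, and 57.3% and 57.2% in the coding-exon regions of replicates 1 and 2, against 50.1% in intron regions and 61.5% within 1 kb of a start site. In 51837 coding exons that no list of both libraries covered, taken at their centre and at least 151 bp long, it was 52.0%. The ratio of observed to expected CpG was 0.471 at coding summits, 0.396 in the unlisted exons, 0.233 in introns and 0.647 near start sites. Windows with GC over 50% and a CpG ratio over 0.6 made up 24.9% of coding-exon regions (279), against 16.1% of all regions, 12.1% of unlisted exons and 2.63% of intron regions. Coding-exon regions thus lay between intron and start-site regions in both measures. The 441 windows that were coding throughout had a mean GC of 60.5%.

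Motifs were searched as exact letters on both strands of the 151 bp windows. GATA was AGATAA or TGATAA, ETS was AGGAAGT or CGGAAGT, RUNX was TGTGGTT or TGCGGTT and AP-1/NFE2 was TGACTCA, while CTCF was a longer consensus. A match is a description of the letters and does not show binding. GATA matches were in 16.4% of coding-exon windows (184; Wilson 95% interval 14.4 to 18.7), 16.6% in replicate 1 and 17.8% in replicate 2, against 18.2% of all regions, 23.6% of intron regions and 9.50% of unlisted exons. ETS matches were in 16.4% (14.4 to 18.7; replicates 16.4% and 14.4%), against 17.3% of all regions, 17.5% in introns and 5.21% in unlisted exons. RUNX matches were in 7.77% (6.35 to 9.49; 7.56% and 7.94%), against 9.16% of all regions, 10.6% in introns and 3.18% in unlisted exons. GATA and RUNX were thus less frequent than in intron regions, with intervals that did not overlap, while the ETS interval held the intron value. The GC content that moves with these shares was given above, and its part in them was not tested.

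As a ratio to unlisted exons CTCF stood at 232 times, and as a ratio to intron regions at 1.08. Its pattern of 13 letters is the longest of the 15 and rare in unlisted exons, so its ratio to them cannot be ranked against those of shorter motifs. CTCF matches were in 6.70% of coding-exon windows (75; 5.38 to 8.32; 7.06% and 8.07% in the replicates), against 6.10% of all regions, 6.20% of intron regions and 0.0289% of unlisted exons (15 of 51837). AP-1/NFE2 matches were in 2.32% (26; 1.59 to 3.38; 2.85% and 2.52%), against 5.66% of all regions and 6.18% in introns, and the unlisted exons, at 1.59%, were at the lower bound of that interval. SP matches (GGGGCGG) were in 4.11% against 8.0% of all regions, 2.57% of intron regions and 1.20% of unlisted exons. The Kruppel-like factor motif (CCACACCC or CCGCACCC) was in 2.59% against 3.36% of all regions and 1.29% of unlisted exons, and the C/EBP motif (TTGCNNAA) in 9.20% against 9.85% and 6.04%. The TAL1 E-box (CAGATG) was in 14.5% against 13.2% of all regions and 15.2% of unlisted exons, and MEIS (TGACAG) in 10.9% against 13.0% and 12.1%. For the TAL1 E-box and MEIS, coding-exon windows were therefore no richer than exons without a region. Of the 1119 windows, 648 (57.9%) held none of GATA, ETS, RUNX, CTCF and AP-1/NFE2.

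**Figure D4:**
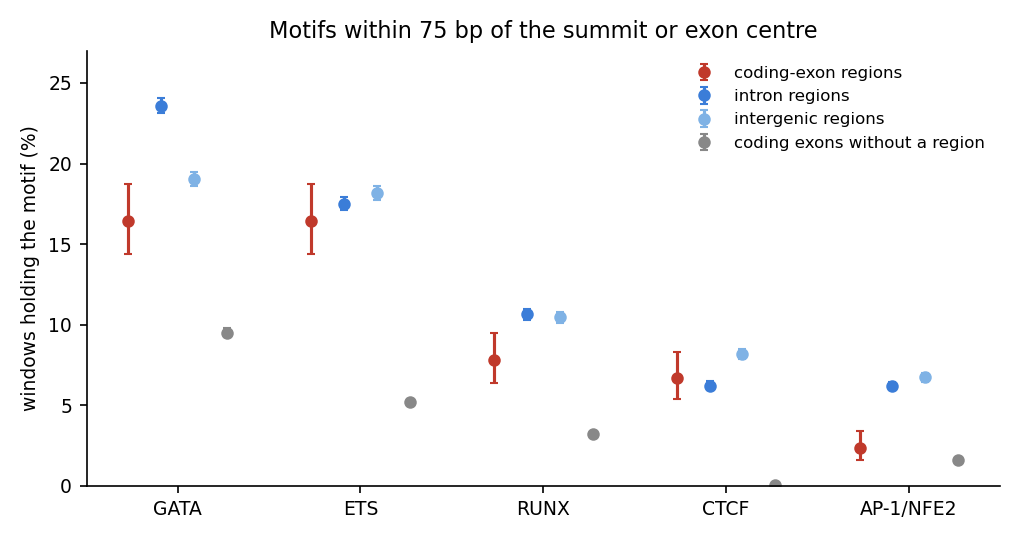
Share of 151 bp windows holding each motif (y axis, %), with Wilson 95% intervals, in coding-exon, intron and intergenic regions and in coding exons without a region, for 5 motifs (x axis). For GATA the coding-exon regions (16.4%) lie between intron regions (23.6%) and coding exons without a region (9.50%), and for CTCF they lie near intron regions (6.70% and 6.20%).

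Unlisted exon windows are coding throughout, so the 441 coding-exon windows that were also coding throughout were set beside them. ETS matches were in 15.4% of the 441 (12.3 to 19.1), RUNX in 7.94% (5.76 to 10.8) and CTCF in 4.54% (2.95 to 6.90), with intervals above the unlisted shares of 5.21%, 3.18% and 0.0289%. GATA was in 12.5% (9.71 to 15.9), also above the unlisted share of 9.50%, though its interval overlapped that of the unlisted exons (9.26 to 9.76). AP-1/NFE2 was in 1.59% (0.771 to 3.24), the same as the unlisted 1.59%. On coding sequence alone, ETS, RUNX, CTCF and, by the smallest margin of these 4, GATA were thus more frequent at coding summits, while AP-1/NFE2 was at the unlisted share.

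Matches were also counted by base. In the 136.851 kb of coding bases in the windows there were 1.21 GATA, 1.13 ETS, 0.519 RUNX and 0.460 CTCF matches per kb. In the 32.118 kb of other bases of those windows the values were 1.49, 1.06, 0.716 and 0.156, and in unlisted exons 0.674, 0.354, 0.215 and 0.00192. All 4 motifs were thus denser in the coding bases of the windows than in unlisted exons. In the windows of intron regions the values were 1.88, 1.29, 0.749 and 0.413. Of the 75 CTCF matches 63 lay wholly in coding sequence, 7 crossed an exon end and 5 lay outside. By distance, CTCF fell from 1.14 matches per kb within 25 bp of the summit to 0.179 at 25 to 50 bp, and ETS from 1.59 to 0.929. GATA fell from 1.66 to 1.18 and RUNX from 0.608 to 0.536. Intron regions showed a fall over the same distances too, for CTCF from 1.08 to 0.147 and for ETS from 1.71 to 1.34. There GATA fell from 2.32 to 1.94 and RUNX from 0.929 to 0.826. The fall was thus not particular to coding-exon regions. In unlisted exons, measured from the exon's centre, GATA was at 0.662 and 0.688 and ETS at 0.363 and 0.377 over the same distances, with no decline.

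**Figure D5:**
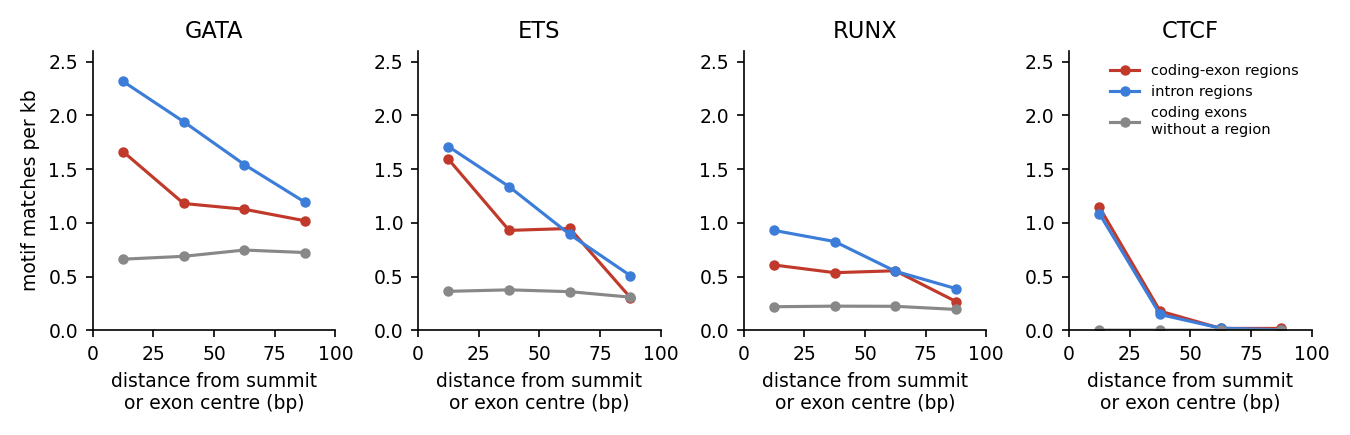
Motif matches per kb (y axis) by distance in bp from the summit, or from the exon's centre for coding exons without a region (x axis), for GATA, ETS, RUNX and CTCF. At coding-exon summits CTCF goes from 1.14 within 25 bp to 0.179 at 25 to 50 bp. At intron summits it goes from 1.08 to 0.147, and coding exons without a region stay nearly level.

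Because coding sequence is read in a frame, matches were placed by codon. Of 165 GATA matches wholly in coding sequence 90 were on the sense strand and 75 on the antisense strand. Sense matches began at codon position 1 in 0 cases, position 2 in 32 and position 3 in 58, and antisense matches at 17, 37 and 21. In unlisted exons the sense counts were 0, 900 and 2006 and the antisense counts 559, 1153 and 660. A sense match at position 1 would put a stop codon, TAA, in frame. The shares by frame were close in both sets, for example 35.2% and 38.0% at sense position 3. For RUNX 69.0% of 71 matches were antisense, against 57.5% of those in unlisted exons, and for ETS 47.4% of 154 against 50.7%.

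Median signal was higher with a match for 5 of 6 motifs and lower for ETS. Windows with a CTCF match had a median conservative signal of 9.46 against 8.40 without, and 73.3% of them were in both replicates' lists against 57.9%. The 3 highest regions with a CTCF match were both Epg5 regions and Dgki, a diacylglycerol kinase gene (17.6 in replicate 1 and 14.7 in replicate 2). With and without a match the medians were 9.45 and 8.43 for AP-1/NFE2, 9.12 and 8.44 for SP, and 9.08 and 8.41 for RUNX. They were closer for GATA, at 8.59 and 8.41, and for ETS, at 8.22 and 8.55. Over all regions the median was 8.90. All regions with a match had medians of 10.2 for CTCF, 9.91 for SP and 9.07 for ETS. For RUNX, AP-1/NFE2 and GATA these were 8.82, 8.68 and 8.46. A higher signal with CTCF was thus not particular to coding exons, while ETS, RUNX, AP-1/NFE2 and GATA lay on the other side of the median than in coding exons. The strongest regions with GATA matches were in Abca13, Gfpt1, the entry enzyme of the hexosamine pathway (16.5 and 17.5), and Cyp4f37, a cytochrome P450 (14.4 and 15.9). Those with RUNX were in Sgtb, Deptor, an mTOR inhibitor (16.9 and 17.0), and Ankrd61 (15.6 and 16.5). With AP-1/NFE2 they were in March4, a ubiquitin ligase (11.8 and 13.8), Nrip1, a nuclear receptor corepressor (10.7 and 13.9), and Antxr1, an anthrax toxin receptor (9.25 and 11.96). The 3 with AP-1/NFE2 were each higher in replicate 2, with log2 ratios of 0.15, 0.29 and 0.29 after the median of all regions was removed. GATA and CTCF matches were in 13.2% and 3.57% of the 280 regions of lowest signal, against 17.5% and 10.4% of the 280 highest.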

How the data were processed

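ATAC-seq peak lists of 2 libraries of 1 group were analysed. Per the deposited file descriptions they are on mm10. The signal of each summit, and its p and q as −log10 values, are those the authors deposited, and for the aligner, peak caller, duplicate handling and any transposase shift nothing is given in the sources used here. Those choices could move summits and change the number of regions. No alignment or signal track was used, so depth per library is unknown. The pseudoreplicated and the IDR-thresholded lists (IDR is the irreproducible discovery rate) were made by the authors for each library and for both together.

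Records sharing an interval were merged, and the summit of highest signal stood for the region. Coordinates are 1-based on GRCm38.p6 (the mm10 assembly), annotated by GENCODE M21. A region counted as shared when a replicate's region covered at least 50% of either, and took that region's signal. Start sites were those of transcripts of the 4 biotypes of the rule. Location was read in the order start site, coding exon, untranslated exon, intron, intergenic. Unlisted coding exons were covered by no list of both libraries. The 15 motifs and 15 gene lists (428 genes), and the regions themselves, were chosen with earlier results of these data known. Named genes were the 10 highest signals, those in megakaryocyte lists and up to 12 in other lists, the 6 genes with most regions, the 3 highest and lowest replicate ratios, the 3 widest, the 3 highest in exons over 1 kb, in initial coding exons and with each of 5 motifs; other genes named, in the lists, in families or at the rule's limit, were chosen after their values were seen. Regions are not replicates, so shares carry Wilson 95% intervals for counting error only and no test was run. Alternatives changed the list, start sites, distance, transcripts, overlap, window and replicates used. Python 3.11.15, numpy 2.4.6, pandas 2.3.3, scipy 1.17.1 and matplotlib 3.10.9 were used, and the counting was tested on simulated data. A result on a region near a megakaryocyte gene is not reported here.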

Additional observations from a re-analysis of the deposited data

How the results depend on the processing

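Of 72 alternatives over 14 results, 25 stayed within the replicates' SD (for the number of regions, within 1.5 times) and 47 moved further, with no test behind any. The number of coding-exon regions was 2118 in the replicated list, 2040 in the pseudoreplicated list and 503 in the stronger 50% of regions. Their share was 1.36% in the IDR-thresholded list, 1.51% in the replicated and 1.51% in the pseudoreplicated list, 1.23% in the stronger 50%, 1.21% with start sites of all biotypes, 1.23% by gene biotype, 1.60% and 1.14% at 0.5 and 2 kb from a start, 1.37% with basic transcripts, and 1.31 to 1.32% leaving out a replicate. The coding to intron density ratio was 1.17 in the IDR-thresholded list, 1.16 in the stronger 50%, 1.14 at 2 kb and 1.19 to 1.21 leaving out a replicate. The share in both replicates was 57.6% with 50% of both regions covered and 97.4% in the pseudoreplicated lists, where the SD of the log2 ratio was 0.205. GC was 57.6% and 56.1% with 50 and 100 bp each side, 56.0% in the stronger 50% and 57.2 to 57.3% leaving out a replicate. The CpG ratio was 0.483, 0.460, 0.462 and 0.470 to 0.475 in the same order. With 50 and 100 bp each side, GATA was in 12.2% and 20.2%, ETS in 11.9% and 18.1%, RUNX in 5.54% and 8.94% and AP-1/NFE2 in 1.61% and 3.40%; in the stronger 50%, RUNX was in 9.15%, CTCF in 8.15% and AP-1/NFE2 in 2.98%. Leaving out a replicate, GATA was in 16.6 to 17.8%, ETS in 14.4 to 16.4%, CTCF in 7.06 to 8.07% and AP-1/NFE2 in 2.52 to 2.85%. Hosts with an open start site were 65.8% and 79.3% with windows of 0.5 and 2 kb. At 2 kb a coding-exon region 1 to 2 kb from its host's start itself counts as an open start. That share is thus raised by the rule, and no share over all eligible genes is given for these windows. No paired analysis was possible because there is only 1 group. Depth per library is unknown, so a region missing from a replicate's list may lie below its threshold.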
